A study of Rattus norvegicus with 30 samples.

Results

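Matrix metalloproteinases (MMPs) are zinc-dependent enzymes that cut the proteins of the extracellular matrix, and the tissue inhibitors of metalloproteinases (TIMPs) block them. The RNA of 7 MMP genes (Mmp2, Mmp3, Mmp9, Mmp11, Mmp12, Mmp13 and Mmp14) and of 3 TIMP genes (Timp1, Timp2 and Timp3) was followed in maturing rat testes and in explants of prepubertal rat testis kept in organotypic culture. The members were chosen by name and matched through their Entrez Gene identifiers, and all 10 were among the 17322 genes measured. A group median of 0.5 FPKM or more (fragment numbers scaled to transcript length and to the mapped reads of the library, a level per transcript length) was reached by 7 of them. Mmp3 and Mmp13 stayed below that level, and Mmp11 was listed at 0 in every library, as was Chchd10, a gene that overlaps it.

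Most MMPs are secreted as inactive proenzymes, and the balance between active enzyme and bound inhibitor sets how fast matrix is turned over. The membrane-anchored enzyme Mmp14, together with Timp2, activates pro-Mmp2 at the cell surface. Mmp2 and Mmp9 are the gelatinases, which degrade denatured collagen and the type IV collagen of basement membranes, while Mmp12 is the elastase of macrophages. In the seminiferous epithelium, gelatinases and TIMPs are known for the remodelling of the basement membrane and of the junctions between Sertoli cells.

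Testes of Wistar Han rats were taken at 6 ages in days postpartum (dpp), with 8.5 and 14.5 dpp, then 24.5 and 30.5 dpp, then 36.5 and lastly 53.5 dpp, and with 3 libraries an age except for 14.5 dpp, where 2 were used. The cultures all began from 8.5 dpp testes cut into 6 fragments, which were held at a gas-liquid interphase on agarose gel at 34 °C in αMEM with 10% knock-out serum replacement, retinol and vitamin E. They were collected after 6 days (D6), 16 days (D16), 22 days (D22) or 28 days (D28), with 3 libraries a time. The labels name no genetic change and no treatment of the in vivo testes. Each culture library was a pool of explants from several juvenile males, so that animals could not be followed one by one, and the testes of later ages came from other animals than the explants.

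Of the 30 libraries, the third 14.5 dpp library, which the study excluded, was listed at 0 for every gene and was left out. Relative depth, read from the steps in which low values rise, ranged from 0.818 to 1.49 over the 29 libraries used, and absolute depth is unknown. A value of 0 is not proof of silence in these data, since 1973 genes were at 0 in every library used, among them 4 of 10 genes looked at because every cell uses them (Hprt1, Ppia, Rps18 and Rpl32). Sertoli cell markers (Sox9, Wt1 and Dhh among them) were present in every group, as the tissue label says. The spermatid markers summed to 11223 to 16706 FPKM at 53.5 dpp and to 2.26 to 6.41 FPKM in the cultured tissues.

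The mean level (FPKM) separated the members into 3 kinds of course. Mmp2 and Mmp14 fell with age in vivo and stayed near the level of the dissected tissue in culture. Mmp9 and Mmp12 were almost absent from the testis and present in all cultured tissues. The inhibitors were highest in culture, Timp1 and Timp3 at D6 and Timp2 at D28.

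**Figure D1:**
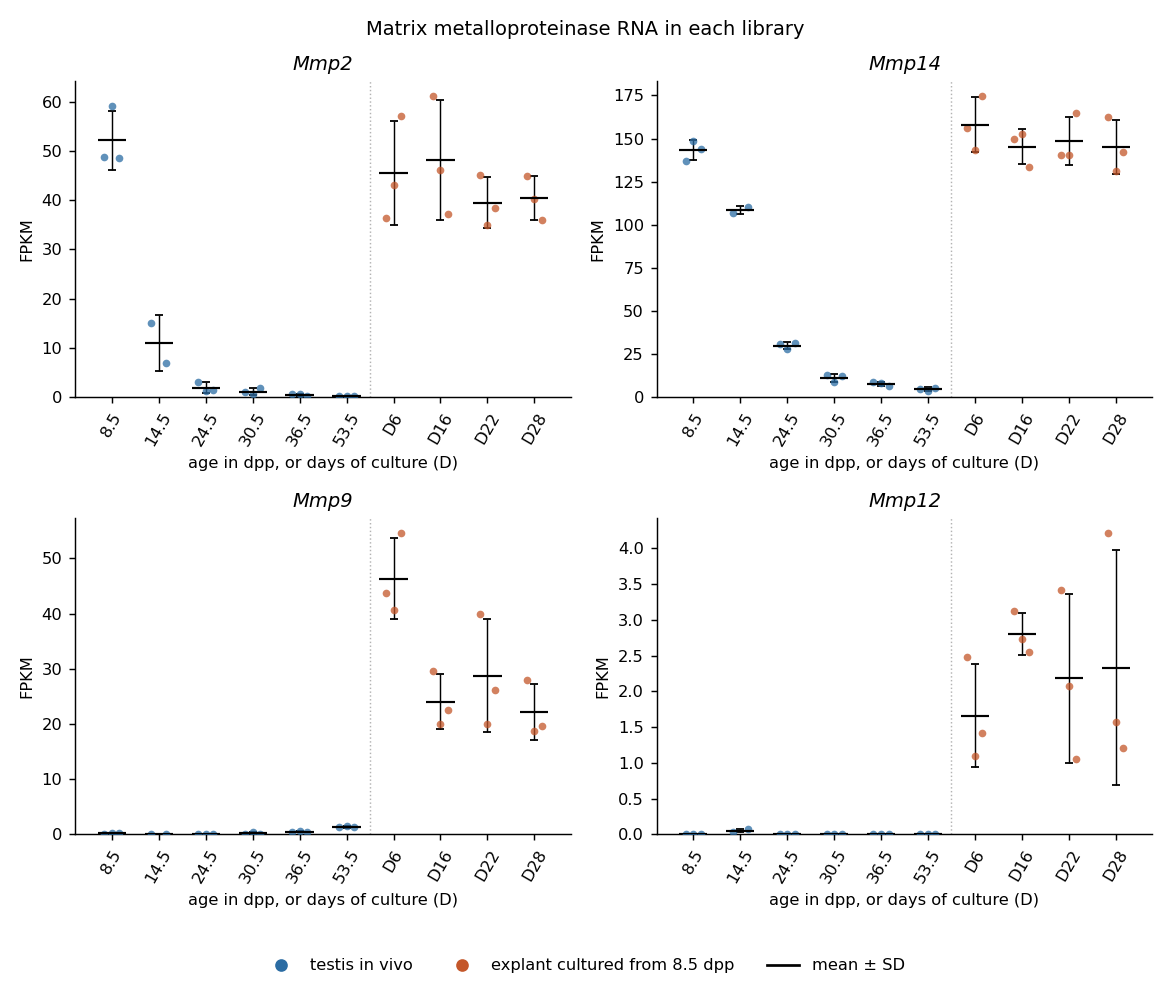
FPKM of Mmp2, Mmp14, Mmp9 and Mmp12 in each library (points) by age in dpp or days of culture (D), with group mean and SD. The 12 culture libraries of Mmp2 lie between 34.9 and 61.1 FPKM and those of Mmp9 between 18.8 and 54.6 FPKM. In vivo, Mmp2 reaches 59.0 FPKM at 8.5 dpp and is at most 0.271 FPKM at 53.5 dpp, whereas Mmp9 is at most 1.51 FPKM at any age.

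Mmp2 (gelatinase A, Entrez Gene 81686) was measured at 48.7, 59.0 and 48.5 FPKM in testes of 8.5 dpp, at 15 and 6.99 FPKM at 14.5 dpp, at 3.19, 1.21 and 1.47 FPKM at 24.5 dpp and at 0.255, 0.188 and 0.271 FPKM at 53.5 dpp. In culture it stood at 36.4, 43.1 and 57.2 FPKM at D6 and at 44.9, 40.3 and 36.0 FPKM at D28. The libraries of D6 and D16 overlapped the 8.5 dpp testes, those of D22 and D28 lay just below them without overlap, and all culture libraries lay above those of 14.5 dpp. In the limma fit of the in vivo ages, Mmp2 fell between 8.5 and 14.5 dpp by 2.23 on the log2(FPKM + 1) scale (SE 0.31, adjusted p = 8.88e-05) and again between 14.5 and 24.5 dpp by 1.99 (SE 0.31, adjusted p = 6.87e-05). The D28 explants differed from the 8.5 dpp testes by -0.36 in log2 (95% interval -0.76 to 0.05, adjusted p = 0.118), which did not pass the test. Against 14.5 dpp, in contrast, Mmp2 was 3.67-fold higher at D28 by the ratio of medians (log2 difference 1.87, SE 0.28, adjusted p = 0.000833).

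Mmp14 (MT1-MMP, Entrez Gene 81707) was the most abundant of the proteinases. It was measured at 137, 149 and 144 FPKM at 8.5 dpp, at 107 and 110.2 FPKM at 14.5 dpp, at 30.7, 27.8 and 31.5 FPKM at 24.5 dpp and at 8.96, 8.38 and 6.73 FPKM at 36.5 dpp. In the cultured tissues it ranged from 131 to 175 FPKM over all 12 libraries, which overlapped the 8.5 dpp testes at each culture time and lay above both 14.5 dpp testes. Its level at D28 was 162, 131 and 142 FPKM, a log2 difference of 0.01 from 8.5 dpp (95% interval -0.21 to 0.24, adjusted p = 0.919, limma). In vivo it fell by 1.82 in log2 between 14.5 and 24.5 dpp (SE 0.16, adjusted p = 4.38e-07) and by 2.43 between 24.5 and 53.5 dpp (SE 0.15, adjusted p = 1.41e-09). In bulk tissue, fewer cells that carry a transcript and less transcript per cell cannot be told apart.

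Mmp9 (gelatinase B, Entrez Gene 81687) showed the largest differences of the 7 measured members from the testes of 8.5 and 14.5 dpp. It stood at 0.15, 0.245 and 0.227 FPKM at 8.5 dpp and at 0.0944 and 0.0950 FPKM at 14.5 dpp, values which at equal depth are 3.99 and 4.49 times the smallest Mmp9 value of any library and so rest on few reads. In the D6 explants it stood at 43.7, 40.6 and 54.6 FPKM, and at D28 at 28.0, 18.8 and 19.6 FPKM. Every culture library was above every in vivo library. At D6 the ratio of medians to 14.5 dpp was 461 (log2 difference 5.42, SE 0.16, adjusted p = 0.000143, limma), and to the 8.5 dpp tissue of origin 193 (log2 difference 5.28, SE 0.22, adjusted p = 4.02e-09). Between D6 and D16 it fell by 0.92 in log2 (SE 0.22, adjusted p = 0.0133), with a ratio of medians of 0.515.

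Within the testis, Mmp9 went against the other members from 24.5 dpp on. It stood at 0.0257, 0.113 and 0.0494 FPKM at 24.5 dpp, at 0.486, 0.542 and 0.413 FPKM at 36.5 dpp and at 1.27, 1.51 and 1.27 FPKM at 53.5 dpp, without overlap between these ages. From 24.5 to 53.5 dpp it rose by 1.14 in log2 (SE 0.10, adjusted p = 6.57e-08), while the other 5 members tested fell. The level at 53.5 dpp, 1.35 ± 0.135 FPKM (SD, n = 3), was still far below the 22.2 ± 5.10 FPKM (SD, n = 3) of the D28 explants.

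Mmp12 (macrophage elastase, Entrez Gene 117033) was listed at 0 in 15 of the 17 in vivo libraries and at 0.0394 and 0.0705 FPKM in the 14.5 dpp testes, values that were in the ratio 1 to 2 at equal depth, as 1 and 2 reads would be. All 12 culture libraries held it, with 2.48, 1.10 and 1.41 FPKM at D6, 3.13, 2.74 and 2.55 FPKM at D16, 3.42, 2.07 and 1.06 FPKM at D22 and 4.21, 1.57 and 1.2 FPKM at D28. The culture times overlapped each other. Against 8.5 dpp, where it was listed at 0, the difference on the log2(FPKM + 1) scale was 1.38 at D6 (SE 0.31, adjusted p = 0.00261, limma) and 1.63 at D28 (SE 0.31, adjusted p = 0.000543). Against 14.5 dpp it was called at each time, but each of these 4 calls ended when either of the 14.5 dpp testes was left out (adjusted p of 0.0691 and 0.0771 at D6, and of 0.0930 and 0.0914 in the F test of the later times, limma).

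Mmp12 lies in a row of 10 MMP genes on chromosome 8 of the rat, in the order Mmp13, Mmp12, Mmp1b, Mmp3, Mmp1, Mmp10, Mmp8, Mmp27, Mmp20 and Mmp7. Of these, 9 were measured, and Mmp12 was the 1 gene with a group median of at least 0.5 FPKM, whereas 4 were at 0 in every library (Mmp10, Mmp8, Mmp27 and Mmp7). Its neighbours Mmp13 (collagenase 3) and Mmp3 (stromelysin 1) reached at most 0.0865 and 0.210 FPKM and were above 0 in 5 and 11 libraries. The highest Mmp3 group mean was at D28, with 0.141 ± 0.0610 FPKM (SD, n = 3), and its groups overlapped. The sequences upstream of these 3 genes are shown because the neighbours share motifs but not their RNA level. They are the last 100 bases before the transcription start of each gene in RefSeq (GRCr8, plus strand, chr8:12782729-12782828 for Mmp13, chr8:12866552-12866651 for Mmp12 and chr8:12925181-12925280 for Mmp3), with an AP-1 match (TGANTCA) and a TATA box match (TATAAA) in capitals.
Mmp13: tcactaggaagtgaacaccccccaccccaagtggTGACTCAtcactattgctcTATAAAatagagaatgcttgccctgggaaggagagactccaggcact
Mmp12: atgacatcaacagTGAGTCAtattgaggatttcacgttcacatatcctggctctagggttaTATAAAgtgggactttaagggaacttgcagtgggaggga
Mmp3: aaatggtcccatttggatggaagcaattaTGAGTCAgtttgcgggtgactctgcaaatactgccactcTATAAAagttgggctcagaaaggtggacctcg
The AP-1 match began at position -66 in Mmp13, -87 in Mmp12 and -71 in Mmp3, and the TATA box match at -47, -39 and -32, counted back from the start. Over the 250 bases before the start, 6.34% of 33469 rat promoters held the AP-1 letters on either strand, 8.06% held the TATA letters on the forward strand and 0.693% held both. Neither match was found in the windows of Mmp11, Timp1, Timp2 and Timp3, and Mmp2, Mmp9 and Mmp14 had no entry in the table. These are matches of letters, and no binding was measured.

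**Figure D2:**
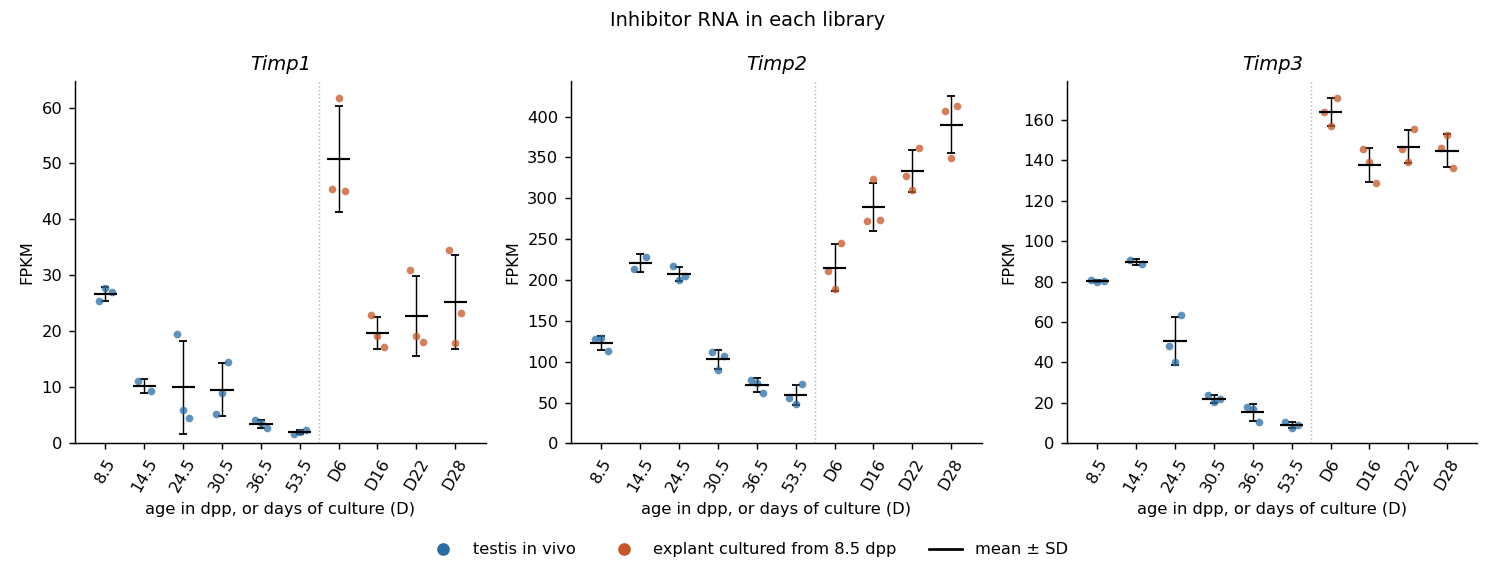
FPKM of Timp1, Timp2 and Timp3 in each library (points) by age in dpp or days of culture (D), with group mean and SD. Timp1 is highest at D6 with 50.8 FPKM, Timp2 at D28 with 389.9 FPKM and Timp3 at D6 with 164 FPKM, and all 3 are lowest at 53.5 dpp.

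Among the inhibitors, Timp1 (Entrez Gene 116510), the secreted inhibitor that binds pro-Mmp9, stood at 25.4, 27.7 and 27.1 FPKM at 8.5 dpp and at 11.1 and 9.31 FPKM at 14.5 dpp. In culture it stood at 45.5, 61.7 and 45.1 FPKM at D6, at 22.9, 19.1 and 17.1 FPKM at D16 and at 34.5, 18 and 23.3 FPKM at D28. The D6 libraries were above all other libraries of the series, those of D16 lay below the 8.5 dpp testes, and those of D22 and D28 overlapped them. At D6 it was 4.46-fold higher than at 14.5 dpp by the ratio of medians (log2 difference 2.20, SE 0.18, adjusted p = 0.0019, limma), and between D6 and D16 it fell by 1.32 in log2 (SE 0.23, adjusted p = 0.00222). The D28 explants differed from 8.5 dpp by -0.13 in log2 (95% interval -0.63 to 0.37, adjusted p = 0.658). Timp1 varied within ages in vivo, with 19.5, 6.00 and 4.49 FPKM at 24.5 dpp, so that the testes of 14.5, 24.5 and 30.5 dpp overlapped. The fall between 8.5 and 14.5 dpp (1.31 in log2, SE 0.44, adjusted p = 0.0281) was lost in all 5 fits without 1 library (adjusted p from 0.0521 to 0.162), and the call at D28 against 14.5 dpp (adjusted p = 0.0334 in the F test) was lost without the first or second 14.5 dpp testis or the third D28 library (adjusted p of 0.106, 0.193 and 0.0590).

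Timp2 (Entrez Gene 29543), the inhibitor that also takes part in the activation of pro-Mmp2, was higher at D28 than in the tissue of origin. It stood at 128, 129 and 114 FPKM at 8.5 dpp, at 211, 189 and 245 FPKM at D6, at 272, 323 and 273 FPKM at D16, at 328, 310.3 and 361 FPKM at D22 and at 407, 349.9 and 413 FPKM at D28. The groups of neighbouring times overlapped from D16 onwards, but no library of D28 overlapped D16. At D28 it was 3.19-fold above 8.5 dpp (log2 difference 1.65, SE 0.11, adjusted p = 6.25e-08, limma), with 0.79 of this present at D6 (SE 0.11, adjusted p = 7.76e-05), a difference of 0.43 between D6 and D16 (SE 0.11, adjusted p = 0.0188) and of 0.43 between D16 and D28 (SE 0.11, adjusted p = 0.0535), which missed the threshold. In vivo Timp2 took another course from Mmp2 and Mmp14, since it was higher at 14.5 dpp (213 and 229 FPKM) than at 8.5 dpp by 0.84 in log2 (SE 0.15, adjusted p = 0.000796), stood at 217, 200.4 and 205 FPKM at 24.5 dpp and fell by 1.82 from 24.5 to 53.5 dpp (SE 0.14, adjusted p = 1.39e-08). Cep295nl, a gene that overlaps Timp2, reached 745 FPKM in vivo but at most 0.976 FPKM in culture, and the strand setting of the quantification is not given in the sources used here.

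Timp3 (Entrez Gene 25358), the inhibitor that is bound to the matrix, stood at 80.9, 79.7 and 80.2 FPKM at 8.5 dpp and at 164, 157 and 171 FPKM at D6. It remained at 129 to 156 FPKM in the 9 later culture libraries, all above the in vivo maximum of 90.6 FPKM. At D6 it was 2.04-fold higher than at 8.5 dpp (log2 difference 1.02, SE 0.07, adjusted p = 2.68e-07, limma) and at D28 1.82-fold higher (log2 difference 0.84, SE 0.07, adjusted p = 5.75e-07). In vivo the groups from 24.5 dpp on lay below those before, and Timp3 fell by 2.34 in log2 between 24.5 and 53.5 dpp (SE 0.18, adjusted p = 2.1e-08). The genes that overlap Timp1 and Timp3, Syn1 and Syn3, reached at most 1.19 and 1.81 FPKM in any library.

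The study compared cultured tissues with 14.5 dpp testes and took D16, D22 and D28 together in 1 limma fit with an F test. It left D6 out of this comparison, giving a different cell composition as the reason. A gene is called here at an adjusted p of at most 0.05 over all genes tested and at least a 2-fold difference between group medians. At D6, tested in a fit of its own, 4 of the 7 members tested were called, all higher (Mmp2, Mmp9, Mmp12 and Timp1), against 7.94% of all 11309 genes tested. The number was 2 (Mmp9 and Timp1) without the third D6 library, and Mmp2 then had an adjusted p of 0.0601 (0.0523 without the second D6 library). At D16 and D22 it was 3 of 7 (Mmp2, Mmp9 and Mmp12), against 11.9% and 12.9% of 11517 genes, and at D28 4 of 7 with Timp1, against 13.6%. The D28 number was 2 (Mmp2 and Mmp9) without either 14.5 dpp testis. Mmp2, Mmp9 and Mmp12 are in the list of deregulated genes that the study drew from these same libraries, so their direction here is no independent evidence. These 4 comparisons share the 2 testes of 14.5 dpp.

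Mmp14, Timp2 and Timp3 passed the test against 14.5 dpp at D28 without reaching a ratio of 2. Their log2 differences were 0.41 for Mmp14 (SE 0.12, adjusted p = 0.0213), 0.81 for Timp2 (SE 0.12, adjusted p = 0.00071) and 0.68 for Timp3 (SE 0.09, adjusted p = 0.000526). At D6, Timp2 differed from 14.5 dpp by -0.04 (95% interval -0.41 to 0.32, adjusted p = 0.857). The median log2 difference of the 7 members at D28 was 1.19, against -0.08 over all genes tested.

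**Figure D3:**
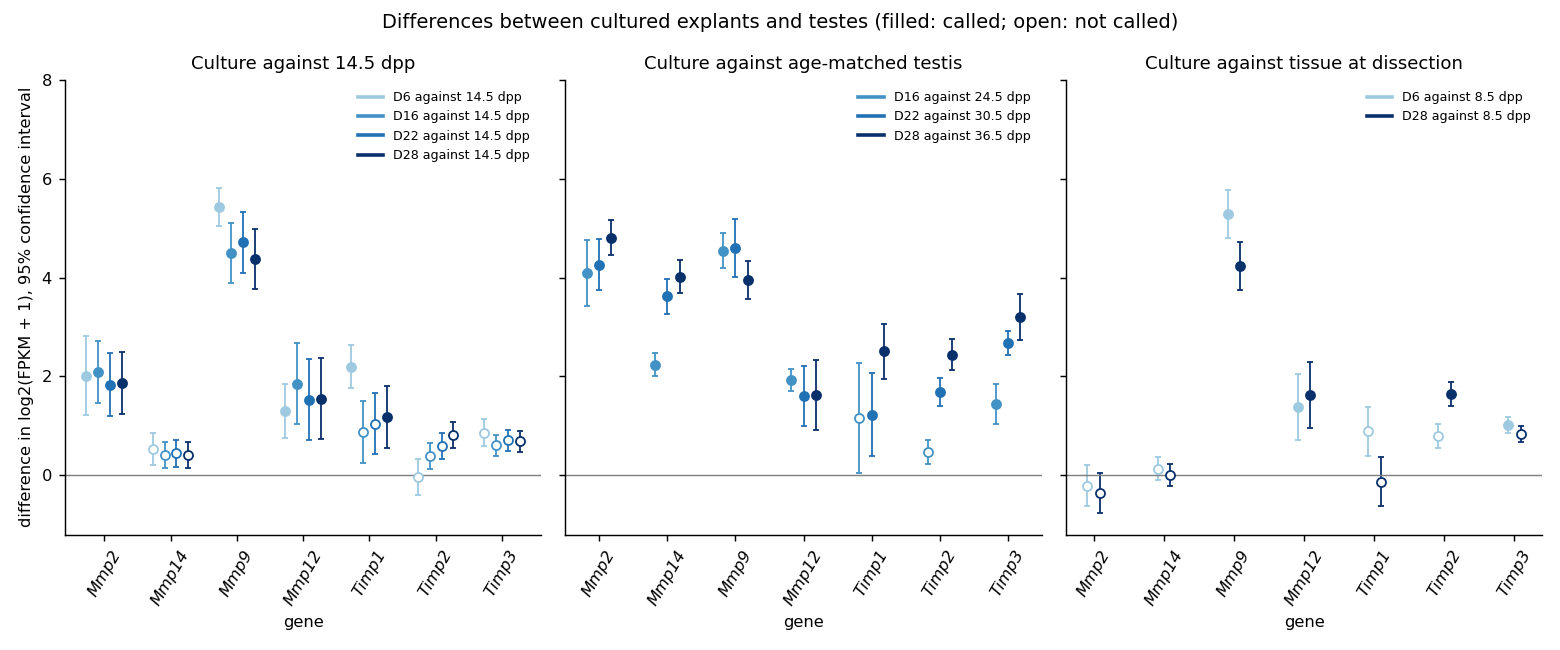
Differences in log2(FPKM + 1), with 95% confidence intervals from limma, of the 7 members tested between cultured explants and testes of 14.5 dpp (left), of the same age (middle) and of 8.5 dpp (right); filled points are called. Against 8.5 dpp at D28, Mmp2, Mmp14 and Timp1 lie at -0.36, 0.01 and -0.13 while Mmp9 lies at 4.24.

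The age of explants can be counted from birth, which pairs D6 with 14.5 dpp (above), D16 with 24.5 dpp, D22 with 30.5 dpp and D28 with 36.5 dpp. In the last 3 of these pairs all differences of the members lay above 0. At D16 against 24.5 dpp, 5 of 7 members were called, all higher (Mmp2, Mmp9, Mmp12, Mmp14 and Timp3), against 43.6% of 11658 genes. Timp1 was the exception without a passed test (log2 difference 1.16, SE 0.47, adjusted p = 0.059), and it was called when the 24.5 dpp library with 19.5 FPKM was left out (log2 difference 1.73, adjusted p = 0.000514). At D22 against 30.5 dpp and at D28 against 36.5 dpp all 7 members tested were called higher, against 65.0% of 12118 and 70.3% of 12210 genes in either direction. The call of Timp1 at D22 was lost without the first or second 30.5 dpp testis or the first D22 library (ratios of medians of 1.62 and 1.94, and an adjusted p in limma just above 0.05), and with quantile normalization (ratio of medians 1.66). Most genes differed in these comparisons, and the median of all genes was itself shifted by 0.12, 0.51 and 0.64 in log2, whereas the median of the members was 1.92, 2.68 and 3.19. With quantile normalization the medians of all genes were 0.11, 0.35 and 0.43. At D28, the ratio of medians to 36.5 dpp was 65.2 for Mmp2, 16.9 for Mmp14, 40.4 for Mmp9, 6.39 for Timp1, 5.52 for Timp2 and 8.47 for Timp3, and Mmp12 was listed at 0 in the 36.5 dpp testes.

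The tissue of origin gives the change since dissection. At D6, 3 of 7 members were called against 8.5 dpp, all higher (Mmp9, Mmp12 and Timp3), against 16.1% of 11539 genes (61.4% of these calls were higher, and 50.7% with quantile normalization). At D28 it was 3 of 7, all higher (Mmp9, Mmp12 and Timp2), against 24.0%. Within the culture, 1 of 7 members was called at D16 against D6, with Timp1 lower, against 3.21% of genes. The number was 2, with Mmp9 also lower, when the first or second D6 library or the first D16 library was left out. Between D16 and D28, 0 of 7 members were called in limma (1 of 7, Timp2, had an unadjusted p under 0.05), against 0.936% of genes.

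In vivo, 2 of the 6 members tested were called at 14.5 dpp against 8.5 dpp, both lower (Mmp2 and Timp1), against 14.7% of 12531 genes, and 2 of 6 at 24.5 against 14.5 dpp, both lower (Mmp2 and Mmp14), against 35.6%. At 53.5 against 24.5 dpp all 6 were called, 5 lower and Mmp9 higher, against 66.8% of genes, of which 6375 were lower and 1990 higher (4319 and 2549 with quantile normalization, where Timp1 was not called, adjusted p = 0.0603, limma). The medians of all genes were shifted by -0.13 and -0.72 in log2 in the last pair of comparisons, against -0.55 and -1.71 for the members.

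The change over the same 22 days was set against each other in 1 fit, as the change from D6 to D28 minus that from 14.5 to 36.5 dpp. It differed for 5 of 7 members, against 57.6% of 12482 genes with a median over all genes of 0.63. Mmp14 differed by 3.49 in log2 (SE 0.19, adjusted p = 8.45e-08), as it changed by -0.12 in culture and by -3.61 in vivo. For Mmp2 the values were -0.15 and -2.94, for Timp3 -0.18 and -2.51, and for Timp2 0.86 and -1.63. Mmp9 differed in the other direction, with -1.04 in culture and 0.43 in vivo. Timp1 changed by -1.0 and -1.3, a difference of 0.30 (95% interval -0.45 to 1.06, adjusted p = 0.425), and Mmp12 differed by 0.33 (95% interval -0.64 to 1.3, adjusted p = 0.505).

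**Figure D4:**
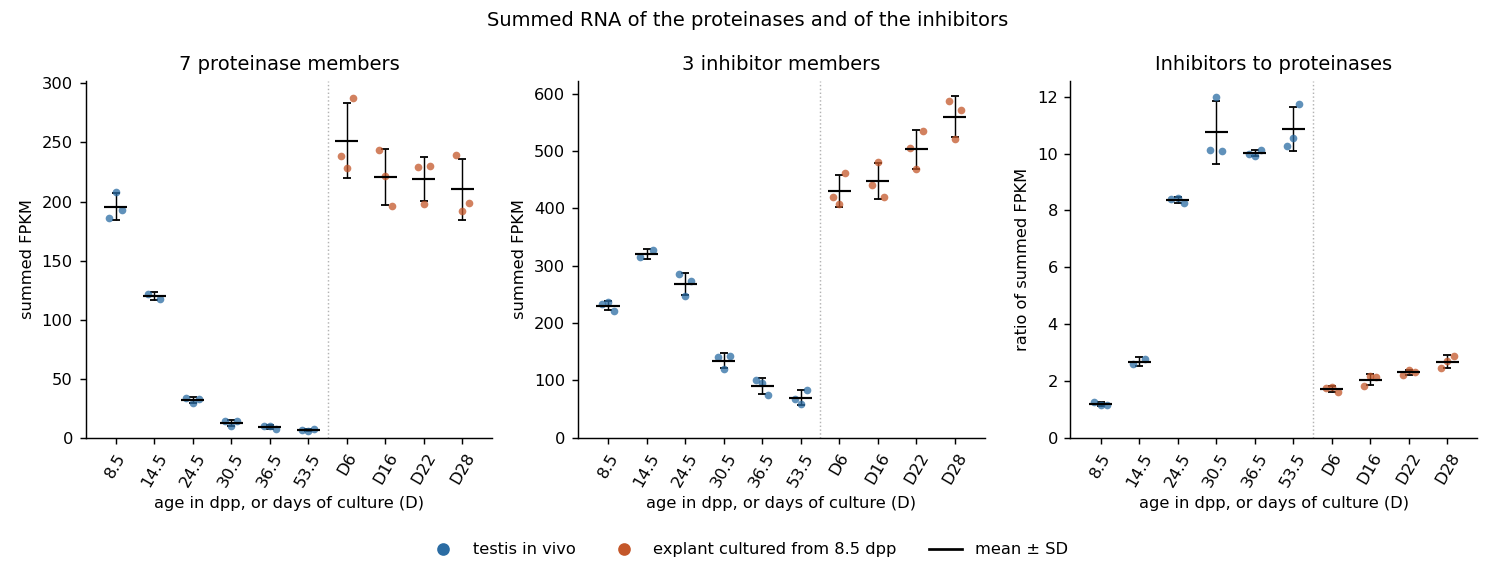
Summed FPKM of the 7 MMP members and of the 3 TIMP members, and the ratio of the sums, in each library (points) by age in dpp or days of culture (D), with group mean and SD. The ratio is 10.0 at 36.5 dpp and 2.68 at D28.

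Summed over the 7 MMP members, RNA stood at 196 ± 11.4 FPKM (SD, n = 3) at 8.5 dpp, at 8.99 ± 1.43 FPKM (SD, n = 3) at 36.5 dpp and at 210.2 ± 25.8 FPKM (SD, n = 3) at D28. The RNA of the 3 TIMP members was highest in vivo at 14.5 dpp with 315 and 326 FPKM, stood at 89.9 ± 13.5 FPKM (SD, n = 3) at 36.5 dpp and at 559.9 ± 35.2 FPKM (SD, n = 3) at D28. The sums rest mostly on Mmp14 and Timp2. The ratio of TIMP to MMP RNA was 1.18 ± 0.0676 (SD, n = 3) at 8.5 dpp, 2.58 and 2.78 at 14.5 dpp, 8.37 ± 0.101 at 24.5 dpp and 10.0 ± 0.113 at 36.5 dpp. In culture it stood at 1.72 ± 0.1 (D6), 2.04 ± 0.200 (D16), 2.30 ± 0.0868 (D22) and 2.68 ± 0.213 (D28, SD and n = 3 for each), so that the D28 libraries (2.45, 2.71 and 2.87) spanned the values of the 14.5 dpp testes. D28 lay below 36.5 dpp and above 8.5 dpp without overlap, and the exact two-sided permutation test gave p = 0.1 for both, the smallest that 3 against 3 allows. Without Mmp14 and Timp2 the ratio at 8.5 dpp (2.06 ± 0.219, SD, n = 3) was closer to that at D28 (2.64 ± 0.271), again without overlap. Without them the 14.5 dpp testes, with 6.72 and 13.7, lay above all D28 libraries (2.33 to 2.80), and the culture times stood at 2.34 ± 0.374 (D6), 2.14 ± 0.301 (D16) and 2.47 ± 0.415 (D22, SD and n = 3 for each).

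**Figure D5:**
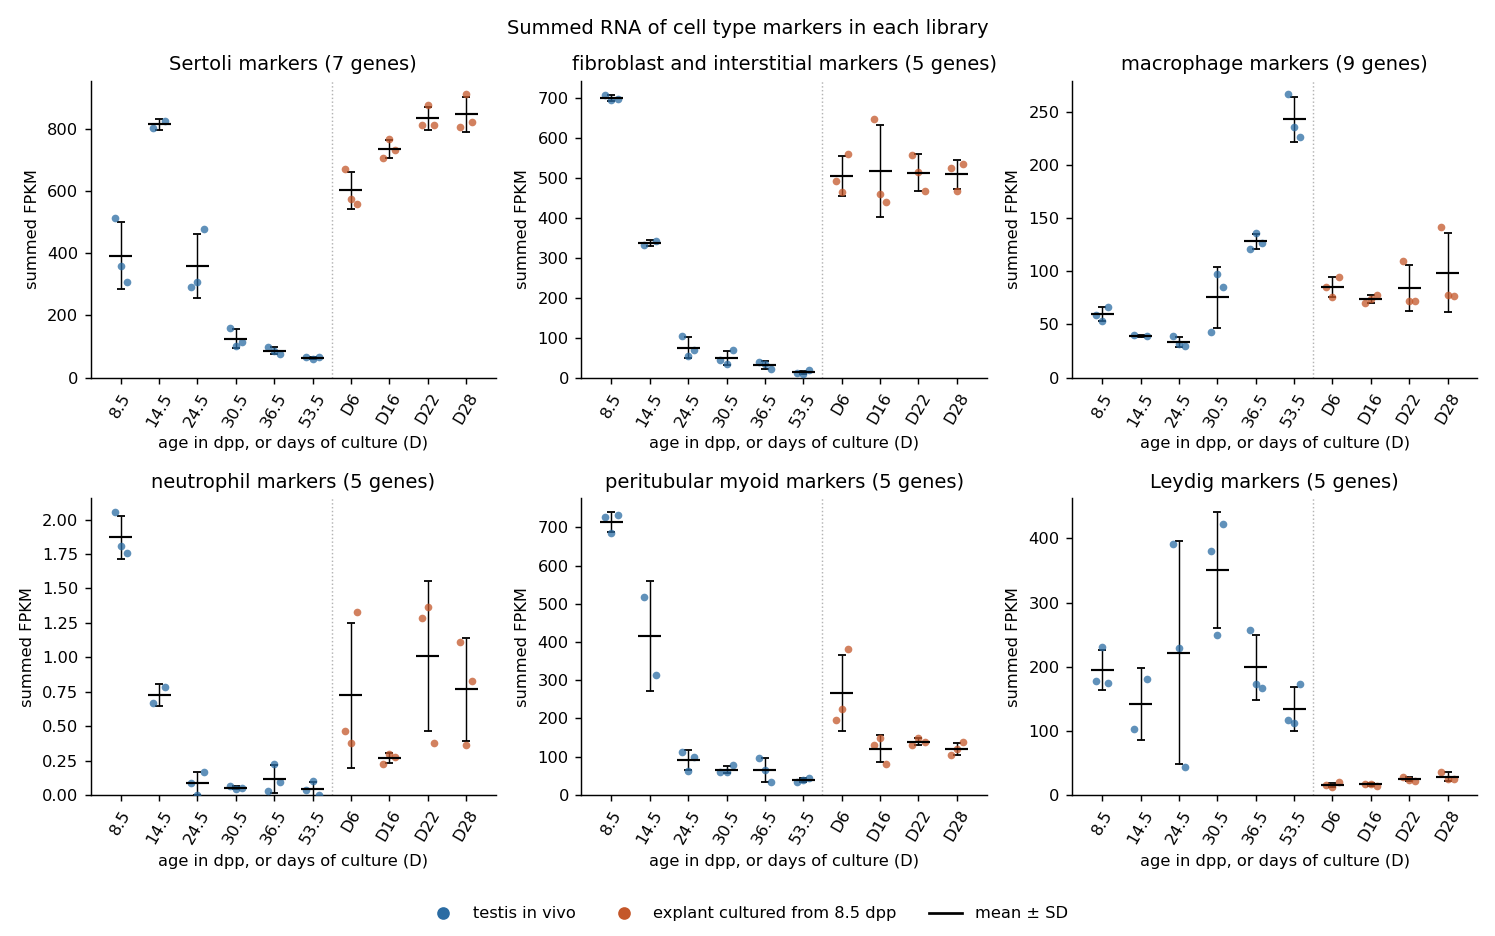
Summed FPKM of markers of 6 cell types in each library (points) by age in dpp or days of culture (D), with group mean and SD. Sertoli and fibroblast markers are high in culture and low in testes from 30.5 dpp on, and the neutrophil sum is at most 2.05 FPKM.

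The summed fibroblast, Sertoli and endothelial markers were higher in culture than in testes from 30.5 dpp on, as were the 7 members tested. Mmp9 did not share the fall of these sums from 14.5 to 53.5 dpp. Summed fibroblast and interstitial markers (5 genes, among them Pdgfra and Dcn) were 695 to 708 FPKM at 8.5 dpp, 331 to 342 FPKM at 14.5 dpp and 9.41 to 18.1 FPKM at 53.5 dpp, and 440.2 to 649 FPKM in culture. At D28 against 8.5 dpp, 3 of the 5 were called lower (Pdgfra, Tcf21 and Col1a1), against 24.0% of all genes in either direction. Dcn and Lum were not called there. Summed Sertoli markers (7 genes, Gata1 at 0 throughout) were 307 to 513 FPKM at 8.5 dpp and 802 to 827 FPKM at 14.5 dpp. They were 75.2 to 98.1 FPKM at 36.5 dpp and 808 to 912 FPKM at D28. The genes differed, as Cldn11 was called higher at D28 than at 8.5 dpp (means of 488 and 62.9 FPKM) and Amh lower (38.2 and 95.2 FPKM). Summed endothelial markers (5 genes) were 44.0 to 46.9 FPKM at 8.5 dpp, 25.1 to 31.5 FPKM at 14.5 dpp, 1.77 to 3.12 FPKM at 53.5 dpp and 47.3 to 84.7 FPKM in culture. Kdr, Pecam1 and Cdh5 of the 4 tested were called higher at D6 against 14.5 dpp, against 7.94% of all genes in either direction. At D6 against 8.5 dpp only Kdr and Pecam1 of the 5 tested were called, both higher, against 16.1%. The sums of peritubular myoid and of Leydig cell markers were lower at D28 than at 8.5 dpp. They were 105 to 138 FPKM at D28 (684 to 731 FPKM at 8.5 dpp) and 24.1 to 36.2 FPKM (175 to 231 FPKM at 8.5 dpp). The part of cell composition in the levels of the members was not tested.

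Mmp9 and Mmp12 are known from neutrophils and macrophages. The 5 neutrophil markers summed to at most 2.05 FPKM in any library, with S100a8 at 0 in all of them. The 9 macrophage markers summed to 38.8 to 40.2 FPKM at 14.5 dpp and to 70.3 to 142 FPKM in culture, and 6 of the 8 tested were called higher at D6 against 14.5 dpp, Cd68 and Cd14 among them, against 7.94% of all genes in either direction. At 8.5 dpp the sum was 53.7 to 66.8 FPKM, and 3 of the 8 were called higher at D6 against that age (Cd68, Adgre1 and Cd14), against 16.1%. Cd163 was at 0 in all culture libraries. In the older testes the sum reached 267 FPKM at 53.5 dpp, mostly through Aif1, without which it was 26.8 to 35.0 FPKM there and 65.6 to 132 FPKM in culture. The markers did not move as 1 set against testes of the same age. At D22 against 30.5 dpp, 5 of 9 were called higher and 3 lower (Aif1, Cd163 and Adgre1), against 65.0% of all genes. At D28 against 36.5 dpp, 5 of 8 were called higher and 2 lower (Aif1 and Adgre1), against 70.3%. At D22 and D28, the first library of each group had the highest macrophage sum (109.6 and 142 FPKM) and also the highest Mmp9, Mmp12 and Timp1 of its group. This was noticed after the values were seen, and the part of macrophages in the levels was not tested. At D6 the sum was highest in the third library, with 94.6 FPKM, where Mmp9 was highest, whereas Mmp12 was highest in the first. At D16 the macrophage sum was lowest in the first library, with 70.3 FPKM, where Mmp9 and Mmp12 were highest.

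Of the other MMP genes, 14 of 15 were measured and 5 had a group median of at least 0.5 FPKM (Mmp15, Mmp16, Mmp19, Mmp23 and Mmp24), all less abundant than Mmp2 and Mmp14 in culture. Against 14.5 dpp at D28, Mmp23 was called higher, Mmp16 lower and the other 3 were not called, where 13.6% of all genes were called in either direction. Mmp15, a membrane-anchored enzyme, stood at 15 ± 1.85 FPKM at 8.5 dpp, 0.318 ± 0.118 at 36.5 dpp and 10.8 ± 1.96 at D28 (SD, n = 3 each). Mmp16, another membrane-anchored enzyme that can activate pro-Mmp2, took a separate course, with 12.0 ± 0.969 FPKM at 8.5 dpp and 0.851 ± 0.156 at D28 (SD, n = 3 each), a called fall. Against 36.5 dpp at D28, 4 of the 5 were called higher and Mmp16 lower, where 70.3% of all genes were called.

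Of 4 further inhibitors, 3 reached the level for a test. Tfpi2 and Timp4 were called lower at D28 than at 14.5 dpp, where 13.6% of all genes were called in either direction. Timp4 was low, with group means of 0.885 FPKM at 14.5 dpp and 0.304 FPKM at D28. The 3 TIMP members lay higher at D28 than at 14.5 dpp, but only Timp1 was called. Reck, a membrane-anchored inhibitor, stood at 7.93 ± 0.840 FPKM (SD, n = 2) at 14.5 dpp and 5.02 ± 0.145 FPKM (SD, n = 3) at D28.

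Of 11 genes of MMP activation and its control, 9 reached the level for a test and 4 were called higher at D28 against 14.5 dpp, where 13.6% of all genes were called in either direction. Among them were Plat, which makes plasmin from plasminogen, the urokinase receptor Plaur, and Serpine2, an inhibitor of serine proteases. Plaur stood at 0.459 ± 0.134 FPKM (SD, n = 2) at 14.5 dpp and at 3.32 ± 0.184 FPKM (SD, n = 3) at D6. Urokinase itself, Plau, was called lower at D6 than at 14.5 dpp (21.9 ± 1.29 FPKM, SD, n = 3, against 50.2 ± 14.9 FPKM, SD, n = 2). Of 13 genes of the related ADAM and ADAMTS families, 11 were measured and tested. At D28 against 14.5 dpp, Adamts1 was called higher, Adamts5 lower and the other 9 were not called. This is near the 13.6% of all genes called there in either direction.

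The genes whose group means of log2(FPKM + 1) followed each member most closely over the 10 groups were ranked by Pearson's r among 10926 genes. The in vivo groups share the rise of spermatid RNA with age, and the values are a description. They were Adamts1 for Mmp2 (r = 0.996), Nr5a1 for Mmp14 (r = 0.999), Kcnj2 for Mmp9 (r = 0.982), Tnfrsf26 for Mmp12 (r = 0.992), Angptl4 for Timp1 (r = 0.972), Lmo2 for Timp2 (r = 0.996) and Elovl1 for Timp3 (r = 0.999). Among the members themselves, Mmp14 was closest to Timp3 (r = 0.980) and Mmp9 to Mmp12 (r = 0.957), and Mmp9 and Mmp14 were the least alike (r = 0.592).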

How the data were processed

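RNA was measured in testes and in pooled explants by single-read sequencing of poly(A) libraries (50 bases) from a stranded kit. According to the study, testes were freed of the tunica albuginea. The necrotic centre of cultured explants was cut away before molecular work, so the culture libraries come from the remaining tissue. The authors aligned reads to the rn6 genome with STAR 2.5.2a, per the submitters' processing notes, quantified RefSeq transcripts with StringTie and deposited gene values in FPKM, normalized to transcript length and mapped reads. Strand handling in the quantification is not given in the sources used here. The deposited values hold no counts, so absolute depth is unknown, and low values are the least precise.

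Entrez Gene identifiers were named with a RefSeq gene table (GRCr8, 17172 of 17322 matched), from which promoter sequences of 7 of the 10 members were also taken. FPKM were transformed to log2(FPKM + 1), a scale that understates changes of low genes. A gene was tested where the median of any group of the fit reached 0.5 FPKM. Tests used limma 3.58.1 (functions lmFit and eBayes, R 4.3.3) with Benjamini-Hochberg adjustment over all genes tested. Calls needed an adjusted p of at most 0.05 and a ratio of medians of at least 2 (for the difference of changes, at least 1 in log2). D16, D22 and D28 against 14.5 dpp were called by an F test in 1 fit of 4 groups, as in the study's methods, with single contrasts given per gene. D6 against 14.5 dpp and each age-matched pair had fits of their own, the in vivo ages shared 1 fit, and 8.5 dpp and the cultures shared another. Mmp12 was not tested in the in vivo fit. The ratio of the summed members was compared with an exact permutation test. The scripts were tested on simulated data. Sums and figures were made with Python 3.11.15, pandas 2.3.3, scipy 1.17.1 and matplotlib 3.10.9.

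All 10 members were named, with genes of 4 further lists (other MMPs, other inhibitors, activators, ADAM and ADAMTS genes), described by their counts, and for each measured member the genes most like it. A gene of the activator list is counted there but not reported here by name. The members and lists were chosen with earlier results of these data known. Alternatives were another pseudocount (0.1), no filter or a filter at 1 FPKM, quantile normalization, a prior variance with a trend, 1 fit of all 10 groups, a replicate block and leaving out each library. Libraries of a group are separate testes or pools, and the libraries of 14.5 dpp number 2.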

Additional observations from a re-analysis of the deposited data

Results flagged for a closer look

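For 5 of 7 members the change from D6 to D28 in culture differed from the change from 14.5 to 36.5 dpp in vivo. The test was limma's test of the difference itself, and 57.6% of 12482 genes were called in it. The difference (culture minus in vivo, log2) was 2.79 for Mmp2 (SE 0.38, adjusted p = 7e-05), 3.49 for Mmp14 (SE 0.19, adjusted p = 8.45e-08), 2.49 for Timp2 (SE 0.19, adjusted p = 1.22e-06), 2.33 for Timp3 (SE 0.25, adjusted p = 1.27e-05) and -1.48 for Mmp9 (SE 0.23, adjusted p = 0.000211). The median over all genes tested was 0.63, so that Mmp9 was the member against that shift.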

How the results depend on the processing

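No called member changed its direction under any alternative, and the counts of called members stayed within 1.5 times of those reported under both pseudocounts, the filters, quantile normalization, the trended prior and 1 fit of all groups. Leaving out 1 library at a time gave 2 to 4 members for D6 against 14.5 dpp (4 with all libraries), 2 to 4 for D28 against 14.5 dpp (4), 1 for 14.5 against 8.5 dpp (2) and 1 to 2 for D16 against D6 (1). Same-numbered libraries did not deviate together (correlations from -0.117 to 0.108), so the numbers are no pairs, and a replicate block left 2 members and 376 genes called for D6 against 14.5 dpp (4 and 898 without it). Leaving out 1 library gave 406 to 564 genes there for the D6 libraries, 1200 for 14.5 against 8.5 dpp without the second 14.5 dpp testis (1841), and 49 and 220 for D28 against D16 (108) without the first D16 and the second D28 library. Without Mmp14 and Timp2, the TIMP to MMP ratio differed by -17.0 between D28 and 36.5 dpp (-7.33 with them) and by 0.582 between D28 and 8.5 dpp (1.5). Timp1 lost its call at D28 against 14.5 dpp without a filter (adjusted p = 0.0530 in the F test) and in 1 fit of all groups (adjusted p = 0.0784), and at D22 against 30.5 dpp (ratio of medians 1.66) and 53.5 against 24.5 dpp (adjusted p = 0.0603) with quantile normalization. The cause of these changes was not tested. Fits without 1 library also hold fewer samples. The 2 libraries of 14.5 dpp limit every comparison with that age.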
